A study of Homo sapiens with 16 samples.

Results

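Open chromatin was examined at 10 genes that mark glial identity or stem-like glioma cells, SOX2, OLIG2, NES, PROM1, ALDH1L1, GFAP, AQP4, SLC1A2, SLC1A3 and CD44, out of 19974 protein-coding genes. The cells were U87, an established human glioblastoma line, and open chromatin was mapped by NicE-seq: in fixed nuclei, accessible DNA is nicked and filled in with biotin-carrying nucleotides, then captured and sequenced. The 16 libraries form 4 groups of 4, numbered 1 or 2 and D1 or D2 in their titles without a statement of what these mark, and labelled Asi_Bel (AsiDNA and belinostat, here the combination), Control_Bel (belinostat), Asi_DMSO (AsiDNA) and Control_DMSO (vehicle). Belinostat, a hydroxamate inhibitor of histone deacetylases, was given at 1 µM for 24 h. AsiDNA is a short DNA decoy that imitates a double-strand break. The labels give no dose or time for it, and their protocols name the cultured cells MTU87 and LTAU87 without saying which groups these are, so the exposure of both AsiDNA groups is not settled here. Each group is represented by 1 peak list for its 4 libraries. There is therefore no spread between replicates, no p-value was computed, and the Wilson 95% intervals given below cover counting error only. They also treat regions as independent, although many regions lie at the same gene, so a share inside or outside an interval is not a test. Read depth is unknown, so a peak missing from a list cannot be told apart from a peak below that list's detection limit.

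Peaks of the 4 lists were merged where they shared 1 bp or more, and a region belonged to a gene when it overlapped the gene's hg38 span extended by 10 kb. This gave 124 distinct regions, out of 183659 in the genome. The combination list held 84 of them, the belinostat list 87, the AsiDNA list 94 and the vehicle list 96. One region between CD44 and SLC1A2, whose spans are 18.8 kb apart, counts for both genes. No list had more than 1 peak in any of the regions, so a region's width in a list is the width of that peak. The authors' fold enrichment of a peak over its local background is not scaled between lists. It is used here as a percentile within each list (100 for the highest peak). A higher percentile in a list means a higher place among that list's own peaks, not a measured gain in accessibility, because the lists differ in length.

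SOX2 and OLIG2 are transcription factors that hold neural progenitor and oligodendrocyte-lineage states, and both are used as markers of glioma stem-like cells, as are the intermediate filament nestin (NES) and prominin-1 (PROM1, CD133). GFAP, the folate enzyme ALDH1L1, the water channel AQP4 and the glutamate transporters SLC1A2 (GLT-1) and SLC1A3 (GLAST) mark astrocytes. CD44, a hyaluronan receptor, marks the mesenchymal state of glioblastoma. Accessible chromatin at a gene's start is commonly found where that gene is or can be transcribed, while accessible sites inside or beside genes include enhancers.

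The 250 bases before annotated starts are shown for 4 starts that carried a peak in every list and for 2 that carried none, because each of these windows held a peak in all lists or in no list. Sequences are from RefSeq (GRCh38.p14), whose table had entries for 7 of the 10 genes, with 15 start windows. OLIG2, GFAP and SLC1A2 were not matched. Capitals mark bases that lay inside a peak in all 4 lists. The windows are chr3:181711675-181711924 on the plus strand for SOX2, chr11:35138921-35139170 on the plus strand for CD44, chr5:36606356-36606605 on the plus strand for an internal start of SLC1A3, chr1:156677408-156677657 on the minus strand for NES, chr4:16084024-16084273 on the minus strand for PROM1 and chr18:26865804-26866053 on the minus strand for AQP4.
SOX2: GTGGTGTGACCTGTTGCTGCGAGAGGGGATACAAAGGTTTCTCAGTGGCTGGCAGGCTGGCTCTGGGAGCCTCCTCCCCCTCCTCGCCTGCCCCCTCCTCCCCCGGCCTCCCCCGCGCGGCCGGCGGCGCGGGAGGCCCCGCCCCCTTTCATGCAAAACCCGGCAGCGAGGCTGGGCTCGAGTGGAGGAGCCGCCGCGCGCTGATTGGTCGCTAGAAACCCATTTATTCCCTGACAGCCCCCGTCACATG
CD44: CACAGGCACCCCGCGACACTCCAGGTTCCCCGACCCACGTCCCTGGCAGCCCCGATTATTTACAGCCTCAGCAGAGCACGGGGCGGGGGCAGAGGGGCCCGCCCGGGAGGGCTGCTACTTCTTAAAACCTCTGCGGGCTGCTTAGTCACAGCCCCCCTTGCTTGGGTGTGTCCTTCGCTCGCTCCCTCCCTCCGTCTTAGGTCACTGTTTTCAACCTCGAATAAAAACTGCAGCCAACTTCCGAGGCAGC
SLC1A3: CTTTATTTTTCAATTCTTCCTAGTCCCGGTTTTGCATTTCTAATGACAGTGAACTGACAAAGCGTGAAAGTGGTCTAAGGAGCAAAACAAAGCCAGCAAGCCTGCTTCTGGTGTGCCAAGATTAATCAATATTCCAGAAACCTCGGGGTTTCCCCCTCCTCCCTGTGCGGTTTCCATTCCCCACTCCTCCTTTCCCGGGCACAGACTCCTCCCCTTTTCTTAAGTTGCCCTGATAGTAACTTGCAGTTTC
NES: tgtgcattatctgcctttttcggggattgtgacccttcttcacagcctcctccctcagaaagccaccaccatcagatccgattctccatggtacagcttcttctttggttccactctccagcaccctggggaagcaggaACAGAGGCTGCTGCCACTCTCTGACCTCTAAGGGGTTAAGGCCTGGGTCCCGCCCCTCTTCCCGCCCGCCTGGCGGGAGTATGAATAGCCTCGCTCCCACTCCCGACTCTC
PROM1: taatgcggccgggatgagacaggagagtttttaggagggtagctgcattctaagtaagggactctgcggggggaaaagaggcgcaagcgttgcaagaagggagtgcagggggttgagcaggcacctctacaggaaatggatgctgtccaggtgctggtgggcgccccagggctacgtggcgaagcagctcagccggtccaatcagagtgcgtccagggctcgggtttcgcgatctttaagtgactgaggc
AQP4: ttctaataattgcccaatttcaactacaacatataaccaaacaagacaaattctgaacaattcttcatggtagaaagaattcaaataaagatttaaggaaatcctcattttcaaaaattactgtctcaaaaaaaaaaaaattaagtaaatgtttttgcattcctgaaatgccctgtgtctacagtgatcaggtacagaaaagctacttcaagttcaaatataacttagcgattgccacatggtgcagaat

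All 250 bases of the SOX2, CD44 and SLC1A3 windows lay in peaks of every list, as did 111 bases of the NES window next to its start, and no base of the PROM1 and AQP4 windows lay in a peak of any list. Nt.CviPII, the enzyme of the assay, nicks at CCA, CCG and CCT. Counted on both strands, these 3 words occurred 40 times in the SOX2 window, 30 times in CD44, 25 times in SLC1A3, 35 times in NES, 29 times in PROM1 and 10 times in AQP4. The median over 34961 annotated start windows of all genes was 32, with 37 in windows that had a peak in every list and 26 in windows that had none. The AQP4 window stood at percentile 2.0 of all windows for these words. PROM1, also without a peak, was at percentile 41.1, and the next of its 4 windows, with 49 matches, at 95.6. The word GGGCGG, the GC box, was found on either strand 2 times each in the NES and CD44 windows and 1 time in SOX2. It was not found in the other 3 windows shown, and 42.7% of all windows hold it. CCAAT, whose first 3 letters are also a nicking word, was found 1 time each in SOX2, PROM1 and AQP4, against 32.0% of all windows with at least 1 match. These matches are descriptions of the sequence and say nothing of bound factors.

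At the starts, 5 of the 10 genes, SOX2, OLIG2, NES, ALDH1L1 and CD44, had a peak within 1000 bp of a gene end in every list, and PROM1, GFAP, AQP4, SLC1A2 and SLC1A3 had none in any list. Over all protein-coding genes 64.1% had such a peak in every list and 27.4% in none. In single lists the share over all genes was 67.9% in the combination, 68.6% in belinostat, 68.5% in AsiDNA and 67.4% in vehicle, and the same 5 of the 10 genes carried one in each. Counting every annotated start in place of the outermost ends, SLC1A3 joined the open genes, because chr5:36606219-36607488, 10.27 kb inside its span, covered the windows of 2 internal starts in all lists. The outermost SLC1A3 start, all 4 start windows of PROM1, all 3 of AQP4 and both ALDH1L1 windows in the table lay outside peaks of every list. The open ALDH1L1 site lay instead at the outer limit of its span. Across the genome 43.4% of start windows overlapped a peak in every list and 49.6% in none.

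**Figure D1:**
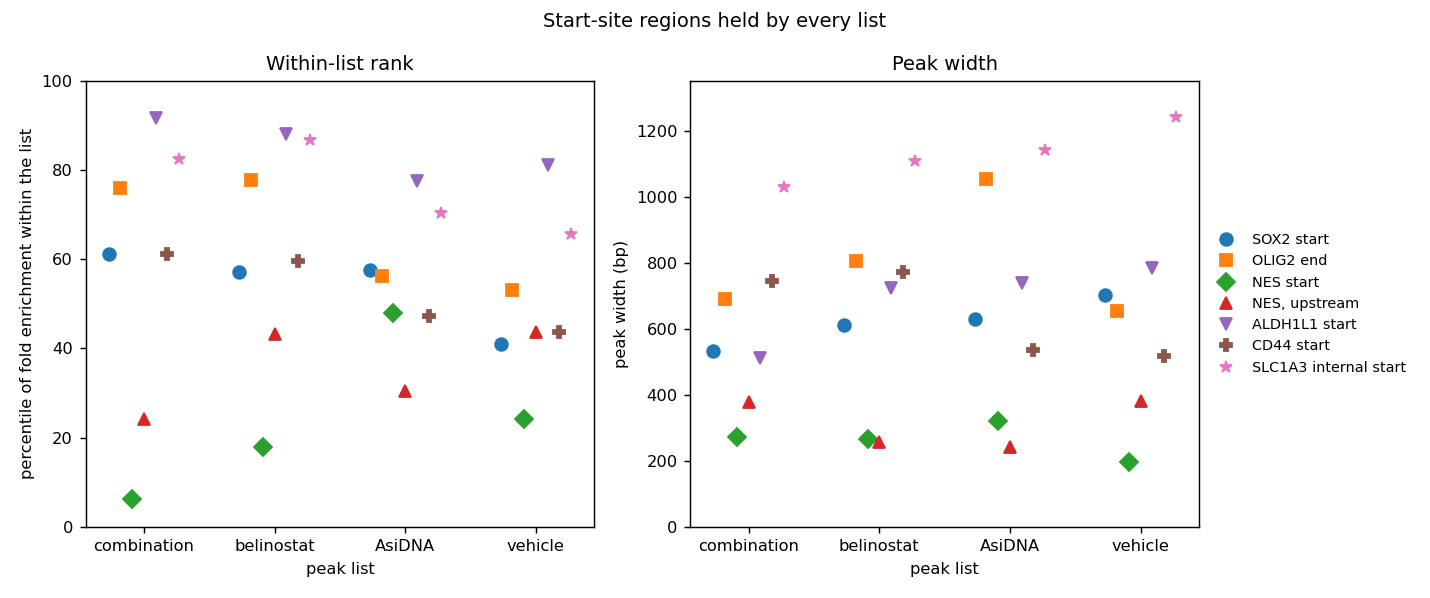
Regions at gene starts that every list held (for OLIG2, whose strand is not in the table used, at its low-coordinate end), by peak list. Left, percentile of the authors' fold enrichment within each list; right, peak width in bp; each point is 1 peak of 1 list. In the left panel the OLIG2, ALDH1L1, CD44 and SLC1A3 points stand higher in both belinostat-treated lists than in the other 2 lists. The NES start points stand lower there. In the right panel the SOX2, ALDH1L1 and SLC1A3 peaks are narrower in both belinostat-treated lists and the CD44 peaks wider.

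Within their lists the open starts stood at different heights. The ALDH1L1 start region, chr3:126197972-126198756, was at percentile 91.7 in the combination, 88.1 in belinostat, 77.6 in AsiDNA and 81.1 in vehicle. The SLC1A3 internal start was at 82.4 in the combination, 86.8 in belinostat, 70.5 in AsiDNA and 65.7 in vehicle. The OLIG2 end, chr21:33025456-33026511, was at 76.1 in the combination, 77.9 in belinostat, 56.2 in AsiDNA and 53.1 in vehicle. For these 3 regions, as for the CD44 start (chr11:35138515-35139293, at 61.3 in the combination, 59.7 in belinostat, 47.2 in AsiDNA and 43.6 in vehicle), both belinostat-treated lists stood above both others. The same order was common elsewhere: of 94332 regions in every list, 35.1% had both belinostat-treated lists higher in percentile than both others, so these 4 starts are read against that share. The SOX2 start, chr3:181711483-181712185, stood at 61.1, 57.2, 57.6 and 41.1 in the combination, belinostat, AsiDNA and vehicle lists, with the vehicle list the only one below percentile 50. The NES start, chr1:156677261-156677581, stayed below percentile 50 in all lists, at 6.13 in the combination, 17.8 in belinostat, 47.9 in AsiDNA and 24.2 in vehicle, with both belinostat-treated lists below both others (26.9% of all regions in every list had that order). A second NES site 0.8 kb upstream, chr1:156677999-156678422, stood at 24.2 in the combination, 43.3 in belinostat, 30.5 in AsiDNA and 43.6 in vehicle, where the belinostat-treated lists did not stand apart.

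Peak widths at the starts did not always follow the percentiles. The CD44 start was wider in both belinostat-treated lists, which also stood higher in percentile. It measured 745 bp in the combination and 771 bp in belinostat against 534 bp in AsiDNA and 516 bp in vehicle. The ALDH1L1 start measured 512 bp in the combination, 723 bp in belinostat, 738 bp in AsiDNA and 785 bp in vehicle, so both belinostat-treated lists, which stood higher in percentile, had the narrower peaks. At SOX2 the peak was 531 bp wide in the combination, 612 bp in belinostat, 629 bp in AsiDNA and 703 bp in vehicle. Both belinostat-treated lists were thus narrower there too, an order that 27.0% of all regions in every list had. The OLIG2 peak was widest in the AsiDNA list, at 1053 bp, against 655 bp in vehicle, 1.61 times as wide, while the combination and belinostat peaks were 689 and 805 bp.

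Around the transcription factor genes there was little else. SOX2, which lies inside the long non-coding gene SOX2-OT, had 4 regions. Of these, 3 were in every list, and the fourth, chr3:181711072-181711272, 0.75 kb upstream of the start, was in the combination list alone at percentile 9.59. A region 9.5 kb upstream, chr3:181702159-181702697, was 457 bp wide in the combination, 486 bp in belinostat, 213 bp in AsiDNA and 322 bp in vehicle, all at percentile 26.6 or lower. OLIG2 had only 1 further region, 10.67 kb from its low-coordinate end, chr21:33036347-33036860, which every list held and which ran in the opposite order to the OLIG2 end, at percentile 58.4 in the combination, 71.7 in belinostat, 77.2 in AsiDNA and 80.6 in vehicle.

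The filament genes GFAP and NES had 7 regions each, and every list held all 7 at GFAP and 6 at NES. GFAP had the largest share of its window covered by peaks of the 10 genes, 11.3% in the combination, 10.8% in belinostat, 10.8% in AsiDNA and 11% in vehicle, although none of its peaks lay within 1000 bp of either of its own ends. One of its regions, chr17:44899025-44900129, lay at ends of the neighbours EFTUD2 and DNAAF19. It stood at percentile 64.0 in the combination, 65.1 in belinostat, 57.6 in AsiDNA and 52.9 in vehicle. The GFAP region with the widest spread in rank was inside the gene, chr17:44905871-44906497, within 1000 bp of ends of DNAAF19 and FAM187A. It stood at percentile 73.0 in the combination and 77.5 in belinostat against 35.8 in AsiDNA and 49.8 in vehicle. Its peak was 613 bp wide in the combination and 572 bp in belinostat against 421 bp in AsiDNA and 411 bp in vehicle. The NES region with the highest percentile in its lowest list, chr1:156659938-156660645, lay at an end of BCAN, which encodes the brain proteoglycan brevican, and stood at 69.8 in the combination, 64.6 in belinostat, 56.5 in AsiDNA and 51.5 in vehicle. Another NES region, 7.36 kb upstream of the start, chr1:156684422-156685107, stood at 50.7 in the combination and 48.0 in belinostat against 56.8 in AsiDNA and 74.2 in vehicle, the opposite order.

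AQP4 had almost no peaks. Its extended span of 33.8 kb held no peak in the combination, belinostat and vehicle lists, and 1 in the AsiDNA list, chr18:26869177-26869379, 203 bp wide, 3.48 kb upstream of the start and at percentile 5.81. Of all protein-coding genes, 14.6% had at most 1 region.

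**Figure D2:**
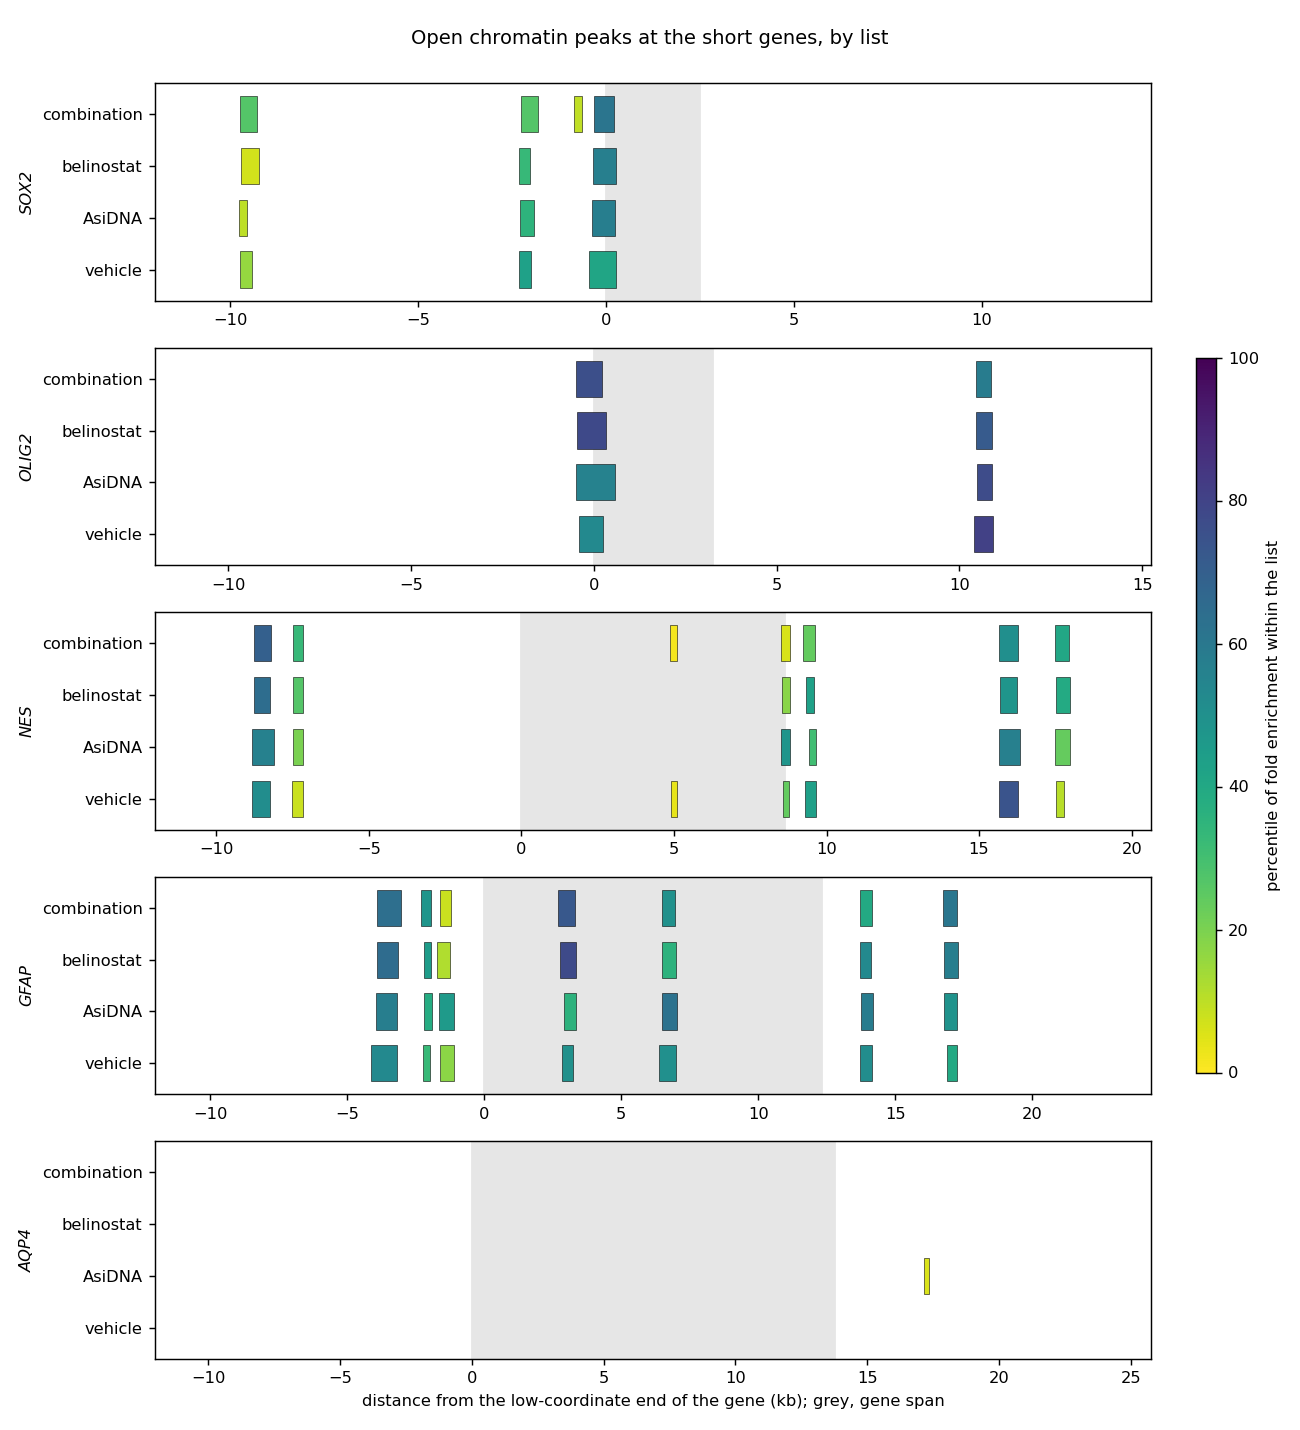
Peaks at SOX2, OLIG2, NES, GFAP and AQP4 in each list, against the distance in kb from the low-coordinate end of the gene (grey, gene span); bar colour gives the percentile of fold enrichment within the list. GFAP shows the same 7 sites in all 4 rows, and AQP4 shows 1 peak in the AsiDNA row.

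PROM1 had the widest range of peak numbers over the lists. Its extended span of 136 kb held 15 regions, 14 of them inside the gene, and the combination and belinostat lists held 5 each, against 14 in AsiDNA and 11 in vehicle. Both belinostat-treated lists held the same 5 regions, which every list held, and the other 10 regions had no peak in either of them. Of those 10, 5 were in both the AsiDNA and vehicle lists, 4 in AsiDNA alone and 1 in vehicle alone. No PROM1 region was in a belinostat-treated list only. Peaks covered 1.40% of the PROM1 window in the combination and 1.70% in belinostat, against 3.17% in AsiDNA and 2.95% in vehicle.

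**Figure D3:**
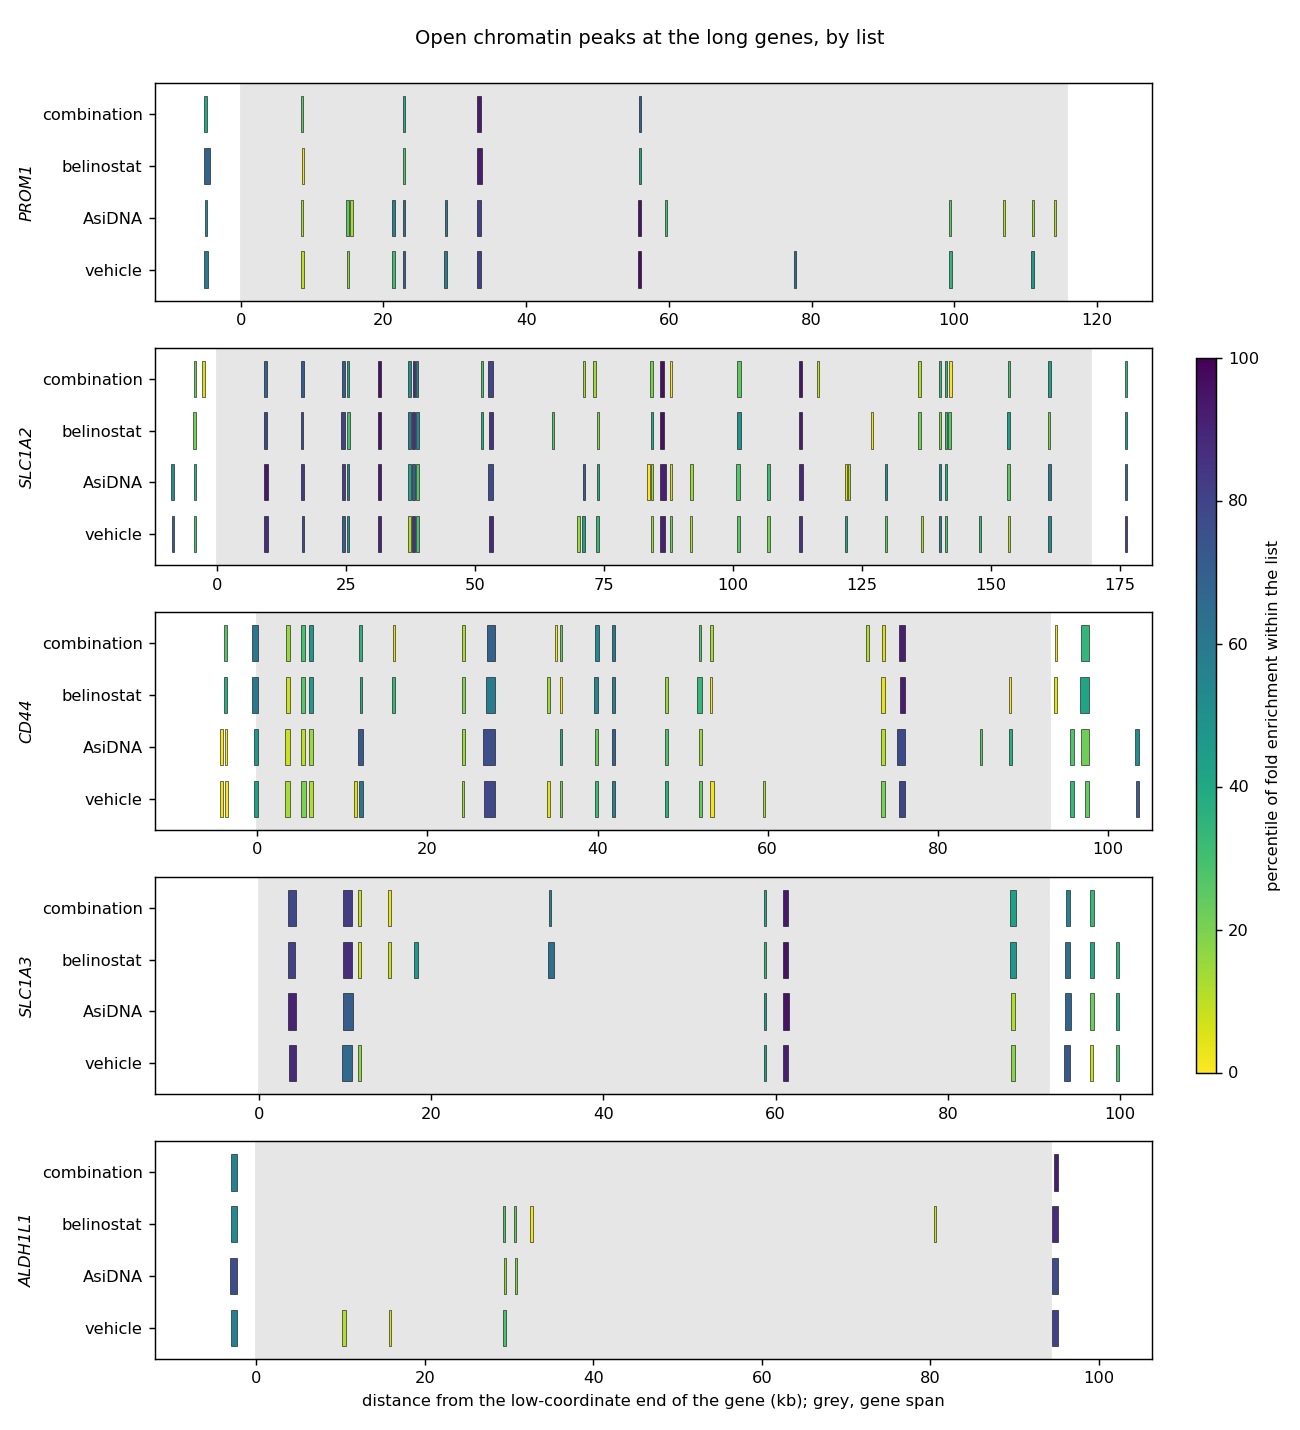
Peaks at PROM1, SLC1A2, CD44, SLC1A3 and ALDH1L1 in each list, against the distance in kb from the low-coordinate end of the gene (grey, gene span); bar colour gives the percentile of fold enrichment within the list, and narrow peaks are drawn wider than to scale so that they can be seen. The combination and belinostat rows of PROM1 show 5 sites each, the AsiDNA row 14 and the vehicle row 11.

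The PROM1 regions without a belinostat-treated peak stood between percentile 11.3 and 65.3 in the lists that held them. The strongest of those in both other lists, chr4:15996777-15997157, 87.06 kb downstream of the start, stood at percentile 59.0 in AsiDNA and 58.7 in vehicle, with folds of 6.72 and 6.46. The site chr4:15989509-15989809 stood at 55.4 in AsiDNA and 31.6 in vehicle, and chr4:16067545-16067909, 16.3 kb downstream of the start, at 25.1 and 34.9. The single vehicle-only site, chr4:16045822-16046068, was at percentile 65.3 in its list and 247 bp wide. Of the 5 sites in all lists, chr4:16023883-16024364 was among the top peaks without belinostat, at 95.2 in AsiDNA and 96.3 in vehicle, and stood at 69.2 in the combination and 41.6 in belinostat. The neighbouring chr4:16001280-16002004 had the opposite order, at 92.8 in the combination and 92.5 in belinostat against 81.0 in AsiDNA and 80.8 in vehicle. The order of the lists thus differed between sites of the same gene.

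A region is called gained when the first list of a pair has a peak in it and the second has none, and lost in the opposite case. Against vehicle, belinostat lost 6 of the 11 PROM1 regions in either list (54.5%, interval 28.0 to 78.7) and gained none. Over all regions in either list, 15.0% were lost and 20.4% gained. The combination lost 9 of 14 PROM1 regions relative to AsiDNA (64.3%, interval 38.8 to 83.7), a pair that shares no list with the first, and 17.6% of all regions were lost there. AsiDNA against vehicle gained 4 of 15 PROM1 regions and lost 1, with 15.8% gained and 10.2% lost over all regions. Having 5 or more regions in both lists without belinostat and in neither belinostat-treated list was uncommon, at 0.531% of protein-coding genes, at 5.49% of the 1912 with at least 15 regions, and at 5 of 2628 (0.19%) among genes with 10 to 20 regions. The cutoff of 5 is the PROM1 count itself, chosen after the PROM1 values were seen, and PROM1 is among the genes counted in each share. When peaks had to reach a −log10 q of 5, PROM1 kept 12 regions, of which 7 had no belinostat-treated peak and 3 were in both other lists. How many other genes reach such counts at that threshold was not computed.

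The glutamate transporter genes differed from each other. SLC1A2, the longest gene of the set, had 40 regions, 36 of them inside the gene. Its lists held 27 in the combination, 25 in belinostat, 29 in AsiDNA and 30 in vehicle, and 19 were in every list. SLC1A2 held 3 of the 5 regions of the 10 genes that stood at percentile 80 or above in every list, a threshold that 8.52% of all regions met and 4.03% of the regions of these genes. Its highest region, chr11:35337095-35338117, stood at 95.9 in the combination, 96.0 in belinostat, 91.2 in AsiDNA and 91.0 in vehicle. The changing sites went in both directions. There were 5 in both lists without belinostat only and 3 in both belinostat-treated lists only, and 8.63% of genes with 30 to 50 regions had 5 or more of the first kind. The first kind included chr11:35242390-35242775, which lies between CD44 and SLC1A2 and stood at 51.0 in AsiDNA and 70.8 in vehicle. Its percentile in vehicle was the highest reached by a site of that pattern in the whole set. In AsiDNA the PROM1 site chr4:15996777-15997157 of the same pattern stood higher, at 59.0. The first kind also included chr11:35380656-35381080 (48.1 in AsiDNA and 25.1 in vehicle) and chr11:35357904-35358232 (31.4 and 20.9). The second kind included chr11:35302468-35302704, at 29.6 in the combination and 37.3 in belinostat.

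SLC1A3, in contrast, had peaks at most of its regions with belinostat. It had 12 regions, 10 of them in the combination and 12 in belinostat, against 8 in AsiDNA and 9 in vehicle. Belinostat alone held every SLC1A3 region. Relative to vehicle it gained 3 of 12 (25%, interval 8.89 to 53.2) and lost none, with 20.4% gained over all regions, a share inside that interval. The strongest gained site, chr5:36630164-36630828, 33.91 kb downstream of the start, was in both belinostat-treated lists only, at percentile 55.7 in the combination and 64.0 in belinostat. Its peak was 251 bp wide in the combination and 665 bp in belinostat. A site in the belinostat list alone, chr5:36614591-36615036, was at percentile 46.1 there. The top SLC1A3 site, chr5:36657439-36658108, was in every list, at 93.4 in the combination, 95 in belinostat, 95 in AsiDNA and 91.6 in vehicle.

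ALDH1L1 had a site in every list near each end of its span and little between. The site away from the start was of middle rank, at percentile 56.6 in the combination, 52.8 in belinostat, 76.2 in AsiDNA and 56.3 in vehicle. Besides its start and chr3:126100494-126101334, at an end of the neighbour SLC41A3, it had 6 regions inside the gene, none of which was in the combination list. Belinostat held 4 of them, AsiDNA 2 and vehicle 3. The highest percentile among these 6 was 28.9, for chr3:126132834-126133250 in vehicle, which was also at 27.0 in belinostat and 16.1 in AsiDNA. Relative to belinostat, the combination lost 4 of 6 ALDH1L1 regions (66.7%, interval 30.0 to 90.3), where the share over all regions was 13.5%. These 4 were weak peaks, between percentile 2.17 and 27.0 in the belinostat list. How many single genes reach such a share was not computed.

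CD44 had 29 regions, 20 in the combination, 21 in belinostat, 21 in AsiDNA and 22 in vehicle, and 15 in every list. At 8 of the 15 sites in every list (53.3%, interval 30.1 to 75.2; all regions 35.1%) both belinostat-treated lists were above both others in percentile, and at 3 they were below. In width they were narrower than both others at 7 and wider at 4, and the share of all regions lay inside the interval for each of these counts. The strongest, chr11:35214383-35215311, at an end of the antisense gene CD44-AS1, stood at 91.7 in the combination and 92.4 in belinostat against 77.9 in AsiDNA and 79.3 in vehicle, with peaks of 661 and 635 bp against 927 and 721 bp. A site 3.73 kb upstream of the start, chr11:35135249-35135627, was at 27.1 in the combination and 37.1 in belinostat against 0.511 in AsiDNA and 0.731 in vehicle.

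CD44 sites present in some lists only lay at its edges as well as inside. At the 3′ end, chr11:35232807-35233233 was in both belinostat-treated lists only, at percentile 2.59 in the combination and 4.41 in belinostat, close to the bottom of each list. Just beyond it, chr11:35234726-35235207 was in both lists without belinostat only, at 27.7 in AsiDNA and 33.5 in vehicle. The next site, chr11:35235897-35236961, was in every list and measured 979 bp in the combination, 1060 bp in belinostat and 950 bp in AsiDNA against 405 bp in vehicle. Inside the gene, chr11:35190830-35191431 was 566 bp wide in belinostat against 258 bp in vehicle, a ratio of 2.19, and 272 bp in the combination and 377 bp in AsiDNA.

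**Figure D4:**
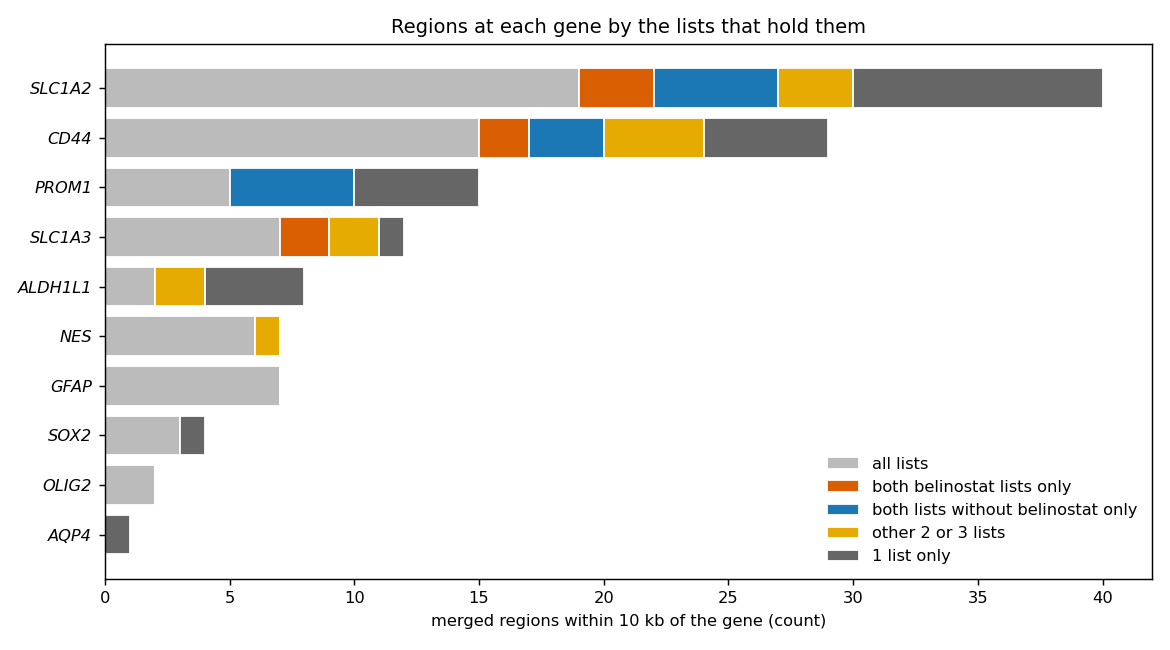
Number of merged regions within 10 kb of each gene, divided by the lists that hold them. PROM1 has 5 regions in both lists without belinostat only and none in both belinostat-treated lists only, SLC1A3 has 2 of the second kind and none of the first, and all 7 GFAP regions are in all lists.

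Over the 10 genes together, 66 of 124 regions (53.2%, interval 44.5 to 61.8) were in every list, against 51.4% of all regions. By place, 40 of 90 regions inside the genes (44.4%) were in every list, 20 of 26 in the outer flanks (76.9%) and 6 of 8 at gene ends. Flank regions include ends of neighbouring genes, such as BCAN, EFTUD2 and SLC41A3. Shares by place were not computed over all genes, so this difference is not read as particular to these genes. Regions in both lists without belinostat only numbered 12 (9.68%, interval 5.62 to 16.2; all regions 5.04%), and those in both belinostat-treated lists only 7 (5.65%; all regions 6.09%). The first group lay at PROM1, SLC1A2 and CD44 alone. Without PROM1 it held 7 of 109 regions (6.42%), and the second group also 7 of 109. With a flank of 50 kb the first and second groups held 15 regions each of 197. When peaks had to reach a −log10 q of 5 they held 8 and 7 of 109, and with lists of equal length 11 and 4 of 119. No region was in both AsiDNA lists only, against 1.23% of all regions, and 1 was in both lists without AsiDNA only (all regions 0.89%). Single lists alone held 6 regions in the combination, 5 in belinostat, 8 in AsiDNA and 8 in vehicle, where the shares of all regions were 4.39%, 6.72%, 6.78% and 4.74%. Regions missing from 1 list only numbered 4 for the combination (all regions 2.25%), 2 for belinostat (all regions 2.63%), 2 for AsiDNA (all regions 2.09%) and 0 for vehicle (all regions 3.66%). The pair of AsiDNA and belinostat alone held 2 regions (all regions 1.39%), and the pair of combination and vehicle alone held 1 (all regions 0.737%). Sites in some lists only stood lower. The highest percentile reached by a region had a median of 19.2 over the 58 regions in 1 to 3 lists and 60.6 over the 66 in every list (22.6 and 74.9 over all regions). This direction is partly built in. Regions in every list take the highest of more values, and a weak peak is more easily missed by a list.

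Pairwise, at the 10 kb flank, losses outnumbered gains in all 5 comparisons, which share lists with one another. This did not hold under every setting. With a flank of 50 kb, belinostat gained 31 of 178 regions relative to vehicle and lost 29. AsiDNA gained 19 of 166 relative to vehicle there and lost 19. When peaks had to reach a −log10 q of 5, the combination gained 10 of 89 relative to belinostat and lost 10. The values that follow are for the 10 kb flank. Belinostat gained 14 of 110 regions relative to vehicle (12.7%, interval 7.73 to 20.2; all regions 20.4%) and lost 23 (20.9%, interval 14.4 to 29.4; all regions 15.0%). Relative to AsiDNA, the combination gained 16 of 110 (14.5%, interval 9.16 to 22.3; all regions 15.2%) and lost 26 (23.6%, interval 16.7 to 32.4; all regions 17.6%). Relative to vehicle, the combination gained 13 of 109 (11.9%; all regions 18.1%) and lost 25 (22.9%, interval 16.0 to 31.7; all regions 15.2%). AsiDNA gained 10 of 106 relative to vehicle (9.43%; all regions 15.8%) and lost 12 (11.3%; all regions 10.2%). The combination gained 9 of 96 relative to belinostat (9.38%; all regions 10.8%) and lost 12 (12.5%; all regions 13.5%). The share of all regions lay inside the interval of the 10 genes except for the gains of belinostat over vehicle and the losses of the combination over vehicle, where it was just outside. With PROM1 left out these shares were 14.1% gained (interval 8.61 to 22.3) and 19.4% lost (interval 12.8 to 28.3), both with the value for all regions inside. Leaving PROM1 out also put another share outside its interval, since AsiDNA over vehicle then gained 6 of 91 (6.59%, interval 3.06 to 13.6), against 15.8% of all regions. Most regions come from few genes, with 40 at SLC1A2, 29 at CD44 and 15 at PROM1. The intervals ignore this clustering, so these positions are descriptions only.

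**Figure D5:**
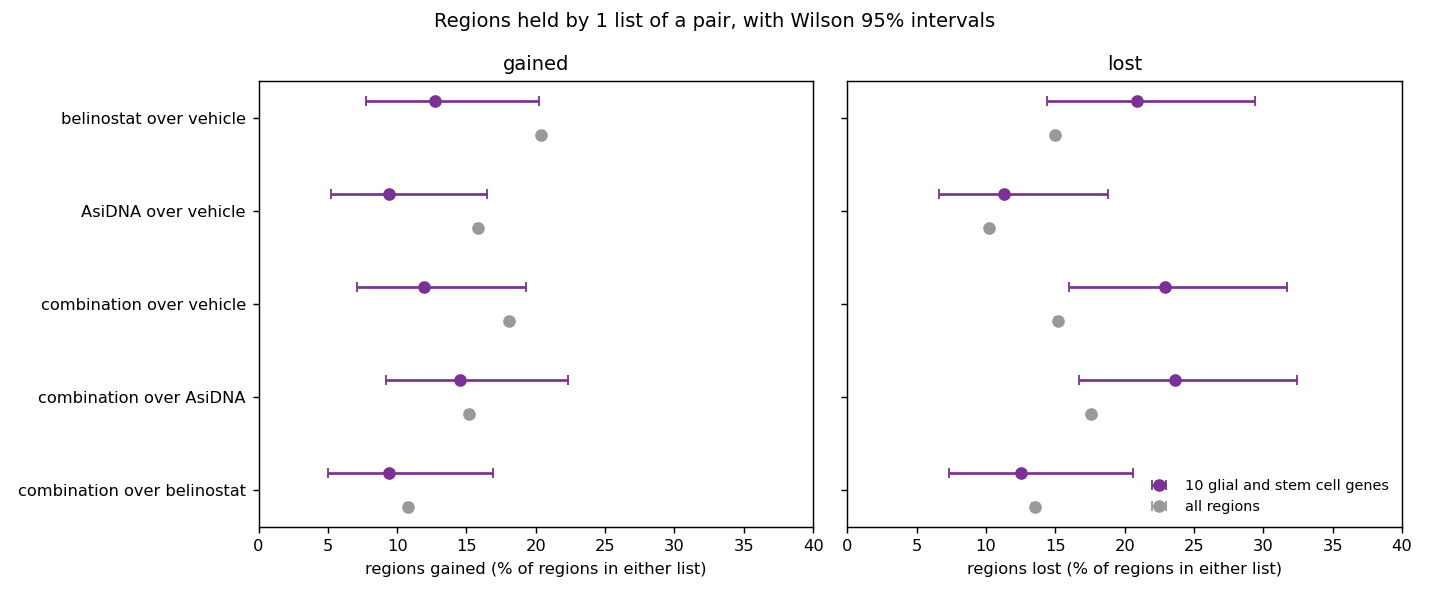
Share of regions gained (left) and lost (right) in each comparison, in % of the regions in either list, for the 10 genes and for all regions; bars are Wilson 95% intervals, which cover counting error only. In the belinostat over vehicle row the 10 genes gained 12.7% and lost 20.9%, and all regions gained 20.4% and lost 15.0%.

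Regions that both lists of a pair held were compared by width and by rank. The median width ratio over the 10 genes was 0.948 for belinostat over vehicle (all regions 1.01), 0.935 for the combination over vehicle (all regions 0.997), 0.913 for the combination over AsiDNA (all regions 0.96), 1.04 for AsiDNA over vehicle (all regions 1.04) and 0.981 for the combination over belinostat (all regions 0.983). A peak at least 1.5 times as wide in belinostat as in vehicle was found in 7 of 73 shared regions (9.59%; all regions 10.2%) and 1 narrower by that factor in 5 (6.85%; all regions 7.24%). A place at least 20 percentile points higher in belinostat than in vehicle was found in 14 (19.2%, interval 11.8 to 29.7; all regions 15.5%) and 1 lower by that much in 9 (12.3%; all regions 11.3%). For the combination against AsiDNA, 2 of 68 were wider (2.94%; all regions 6.09%) and 7 narrower (10.3%; all regions 9.45%), 6 higher in rank (8.82%; all regions 12.1%) and 8 lower (11.8%; all regions 13.2%). For AsiDNA against vehicle, 6 of 84 were wider (7.14%; all regions 7.97%), 3 narrower (3.57%; all regions 3.86%), 6 higher (7.14%; all regions 7.54%) and 2 lower (2.38%; all regions 4.39%). The wider ones included the OLIG2 end. For the combination against vehicle, 4 of 71 were wider (5.63%; all regions 8.41%), 5 narrower (7.04%; all regions 7.64%), 13 higher (18.3%; all regions 13.5%) and 9 lower (12.7%; all regions 11.5%). For the combination against belinostat, 1 of 75 was wider (1.33%; all regions 4.05%), 6 narrower (8.0%; all regions 6.02%), 4 higher (5.33%; all regions 3.45%) and 4 lower (5.33%; all regions 5.53%). Across the 66 regions in every list, both belinostat-treated lists were higher in percentile than both others in 29 (43.9%, interval 32.6 to 55.9; all regions 35.1%) and lower in 21 (31.8%, interval 21.8 to 43.8; all regions 26.9%). Their peaks were wider in 10 (15.2%, interval 8.44 to 25.7; all regions 20.8%) and narrower in 27 (40.9%, interval 29.9 to 53.0; all regions 27.0%), and of these 4 shares the narrower one alone had the value for all regions outside its interval. This order of lists was examined after the data were seen.

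Lists of related genes gave a setting for these values. Of 10 further astrocyte genes, 7 had a gene-end peak in every list and 1 in none. Of 10 oligodendrocyte-lineage genes the counts were 5 and 5, and of 12 neural and glioma stem cell genes 6 and 5. Among all protein-coding genes the shares were 64.1% in every list and 27.4% in none, against which these counts and those of the other markers below are read. Regions in both lists without belinostat only (all regions 5.04%) made up 5.77% of 52 regions at the astrocyte genes, 0% of 65 at the oligodendrocyte-lineage genes and 3.0% of 100 at the stem cell genes. They made up 4.03% of 124 regions at neuron markers, 8.51% of 47 at microglia and leukocyte markers and 2.2% of 91 at endothelium markers. The opposite pattern, both belinostat-treated lists only (all regions 6.09%), made up 13.5%, 4.62%, 5.0%, 7.26%, 4.26% and 5.49% in these lists, in the same order. The highest covered shares, as means over the lists, were 12% at SOX9 and 10.5% at VIM among astrocyte genes, 13.0% at CSPG4 and 7.40% at CNP in the oligodendrocyte lineage, and 14.1% at BMI1 and 13.0% at HES1 among stem cell genes. The lowest were 0.543% at FGFR3 and 2.87% at ATP1B2, 1.29% at NKX2-2 and 2.09% at MOG, and, among stem cell genes, 1.40% at L1CAM. Among markers of other cell types, 6 of 9 neuron markers, 4 of 8 microglia and leukocyte markers and 0 of 6 endothelium markers had a gene-end peak in every list, and 3, 3 and 4 had one in none. A peak at a gene's end therefore did not tell glial from neuronal genes in these lists, and the peak lists give no expression level by which the cells' label could be checked.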

How the data were processed

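The authors deposited 1 narrowPeak list for each group of 4 libraries, and groups were taken from the treatment field of the labels. The submitters' processing notes name hg38 and, in no stated order, MACS2, Bowtie2, Trim Galore 0.5.0, deepTools, Picard and SAMtools. Their options, a control input and how libraries became 1 list were not stated there. For each peak the authors deposited a fold enrichment (a ratio over local background), p-value and q-value on the −log10 scale, a whole-number score and a summit offset. The lowest −log10 q was 1.30.

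Peaks on chromosomes 1 to 22 and X were merged at 1 bp overlap. Gene spans came from RefSeq (GRCh38.p14) and all 10 genes were matched. That table has no exons or strand, and strand came from the promoter table. Gained or lost means a peak in 1 list of a pair. The members, gene lists and settings were chosen with earlier results of these data known. Named in full were gene-end regions, each gene's highest region, sites following either drug from percentile 20, single-list or single-missing sites from percentile 40, width ratios from 2, and the 2 most and 2 least covered genes of each related list, of which 1 is not reported here. Alternatives covered the −log10 q threshold, list length, overlap, flank, window, rank value and call size. Merging recovered 100% of 20000 simulated regions. These were set far apart, so the check does not cover peaks that lie close together. Python 3.11.15, numpy 2.4.6, pandas 2.3.3, scipy 1.17.1 and matplotlib 3.10.9 were used.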

Additional observations from a re-analysis of the deposited data

Results flagged for a closer look

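At 3 regions belinostat went in opposite directions without and with AsiDNA, a difference that was not tested. The NES region chr1:156673637-156673870 was held by the combination and vehicle lists only, with a lowest percentile of 1.63. The ALDH1L1 region chr3:126134193-126134520 was held by the belinostat and AsiDNA lists only, with a lowest percentile of 18.9. The CD44 region chr11:35227557-35227872 was also in those lists only, with a lowest percentile of 0.676. Over all regions these patterns made up 0.737% and 1.39%.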

How the results depend on the processing

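Of 220 values recomputed under 12 alternatives, 192 stayed within the Wilson interval of the reported share or within 1.5 times the reported count, and 28 did not. With peaks at a −log10 q of 5 or more, and again with a margin between present and absent, the share of regions in both lists without AsiDNA only was 0.0%. With that margin 63.8% of regions were in all lists and AsiDNA over vehicle gained 4.71%. With a flank of 0 kb the share of shared regions wider was 4.0% for belinostat over vehicle and 0.0% for the combination in each of its 3 comparisons. With a gene-end window of 2000 bp the AsiDNA list had a peak at 8 genes and each of the other lists at 7, against 5 in every list at 1000 bp.

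A lower call size (a width ratio nearer to 1, and 10 percentile points) calls more regions by construction. For belinostat over vehicle it gave 19.2% wider, 17.8% narrower, 34.2% higher and 23.3% lower. For AsiDNA over vehicle it gave 23.8% wider, 11.9% narrower, 21.4% higher and 13.1% lower. For the combination over vehicle it gave 22.5% wider, 18.3% narrower, 36.6% higher and 23.9% lower. For the combination over AsiDNA the values were 10.3% wider, 25% narrower, 33.8% higher and 30.9% lower, and over belinostat 12% wider, 13.3% higher and 17.3% lower. The causes of the other moves were not tested.

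No paired analysis was possible because each group has 1 peak list, and leaving out a library was not possible for the same reason. Patterns over all lists were not computed at 50% overlap. Leaving out PROM1, the order of lists by rank and width, and percentile 80 were chosen after seeing the data. Read depth is unknown, so a missing weak peak does not show closed chromatin.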
